A study of Mus musculus with 9 samples.

Results

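A set of 9 genes whose proteins are known signaling partners of FKBP51, the product of Fkbp5, were examined in RNA from the medial prefrontal cortex (mPFC) of mice: Akt1, Phlpp1, Phlpp2, Becn1, Dnmt1, Gsk3b, Cdk5, Skp2 and Tbc1d4. They were taken by name, and all 9 of 9 were found among the 24532 genes listed and passed the filter on low counts. The mRNA of 9 male mice was sequenced, 3 in each of 3 groups, with 1 library per mouse. CT mice were wild type for Fkbp5 and unstressed. WT_ST mice were wild type, and KO_ST mice are labelled Fkbp5-/-, and in both of these groups mice spent 6 h daily under restraint for 3 weeks. The labels give C57BL/6 as the strain and 11 weeks as the age of every mouse. The study's methods describe mice of 8 weeks, which would be 11 weeks after the 3 weeks of restraint if it is the age at the start. By those methods the deleted allele had been backcrossed for 10 generations to C57BL/6J, all mice came from matings of heterozygotes, and they were housed in single cages. The methods also state that CT mice, like the restrained mice, had no food or water during the period of restraint. No unstressed Fkbp5-/- mice were analysed here, so KO_ST against CT joins genotype and stress, and KO_ST against WT_ST compares genotypes under stress only.

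FKBP51 is a co-chaperone of Hsp90 that lowers the sensitivity of the glucocorticoid receptor, and its gene is itself switched on by glucocorticoids. Besides steroid receptors it binds kinases and phosphatases, and much of its known action is on the activity or modification of its partners rather than on their transcripts. It brings the phosphatase PHLPP to the kinase Akt, which lowers Akt phosphorylation, and through Akt or direct binding it has been tied to autophagy, to the kinases GSK3 beta and CDK5, to the DNA methyltransferase DNMT1 and, in muscle, to glucose uptake through AS160. The abundance of mRNA measured here says nothing on phosphorylation or protein binding.

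Libraries held 43778471 to 61150128 counted reads, and 14370 genes averaged at least 30 reads. Fkbp5 had an FPKM (sequenced fragments scaled by transcript length and by the library's mapped reads) of 7.61, 6.46 and 7.28 in CT, of 9.83, 9.47 and 10.3 in WT_ST and of 3.59, 4.69 and 4.45 in KO_ST. The groups did not overlap, and 625 to 907 reads were still counted on the gene in each KO_ST mouse. Values per gene do not show which part of it was deleted. On quantile-normalized log2(FPKM+1) it was 1.04 lower in KO_ST than in WT_ST (log2 fold change -1.04, standard error 0.0866, limma adjusted p = 0.00908, or 0.0515 without WT_ST replicate 2). Over all alternatives run, this log2 fold change lay between -1.20 and -0.954, with an adjusted p of at most 0.251 (limma, edgeR or DESeq2). The rule for calling a gene is given below. Over all tested genes it called 2.47% in WT_ST against CT, 3.56% in KO_ST against CT and 2% in KO_ST against WT_ST. Of the marker lists for cell types, the microglial one had the most called genes, 5 of 6 in each comparison with CT. Its summed FPKM was 97.0 to 125 in CT, 78.5 to 84.8 in WT_ST and 43.2 to 87.9 in KO_ST. Neuronal markers summed to an FPKM of 2271 to 2674 in CT, 2714 to 2942 in WT_ST and 2783 to 2925 in KO_ST, so that every stressed mouse lay above CT, and none of the 6 was called in any comparison. Astrocyte markers summed to 607 to 647 in CT, 543 to 577 in WT_ST and 557 to 642 in KO_ST, with 1 of 6 called, in WT_ST against CT. No marker was at 0 in all mice. Of 6 markers of neurons of the striatum, a neighboring region, 3 were called in WT_ST against CT, 1 in KO_ST against CT and 2 in KO_ST against WT_ST, with medians of 0.39, 0.08 and -0.28 over the 6 log2 fold changes. The part of these markers in the results on the partners was not tested.

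None of the 9 partner genes was called as different between any pair of groups. A gene was called at an unadjusted p under 0.05 in limma's moderated test and a fold change above 1.2. By this rule 0 of 9 were called in WT_ST against CT, where 2.47% of all tested genes were, 0 of 9 in KO_ST against CT, where 3.56% were, and 0 of 9 in KO_ST against WT_ST, where 2% were. With so few members such shares would give less than 1 called gene, so the counts of 0 do not set the partners apart from other genes. At an unadjusted p under 0.05 alone the count was also 0 of 9 each time, against 7.86%, 9.46% and 5.82% of all tested genes, and at an adjusted p under 0.05 it was 0 of 9 against 0.0348%, 0.0626% and 0.153%. The smallest unadjusted p among the 27 member comparisons was 0.114 and the smallest adjusted p was 0.670 (limma, Benjamini-Hochberg over 14370 genes). An F-test over the 3 groups gave an unadjusted p of 0.221 to 0.835 for the members (limma, 9 mice), so that 0 of 9 were under 0.05, where 9.13% of tested genes were, or 0.111% after adjustment. The members' median log2 fold change was -0.020, -0.011 and 0.0027 in the comparisons in this order, beside 0.0034, 0.0024 and -0.0015 over all tested genes.

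For the 7 partners that are not low, the data bounded these differences closely. On the log2(FPKM+1) scale, fold changes of the members lay between -0.10 and 0.08, with standard errors of 0.0324 to 0.0842. On this scale the whole 95% confidence interval of 26 of the 27 comparisons lay within a 1.2-fold change in either direction. The exception was Phlpp2 in KO_ST against WT_ST, whose interval reached a level 20.8% higher, and the lowest bound of all was 16.4% lower, for Phlpp2 in WT_ST against CT. For Akt1 the interval in KO_ST against WT_ST ran from 4.97% lower to 5.62% higher. The pseudocount of 1 narrows the intervals of Skp2 and Tbc1d4, which are low. With a pseudocount of 0.1, 19 of the 27 intervals lay within a 1.2-fold change, all of them among the 21 comparisons of the other 7 partners, and 0 of the 6 of Skp2 and Tbc1d4 did. The outermost bounds were then 34.97% higher, for Tbc1d4 in WT_ST against CT, and 25.3% lower, for Tbc1d4 in KO_ST against WT_ST, and all 27 intervals included 0.

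**Figure D1:**
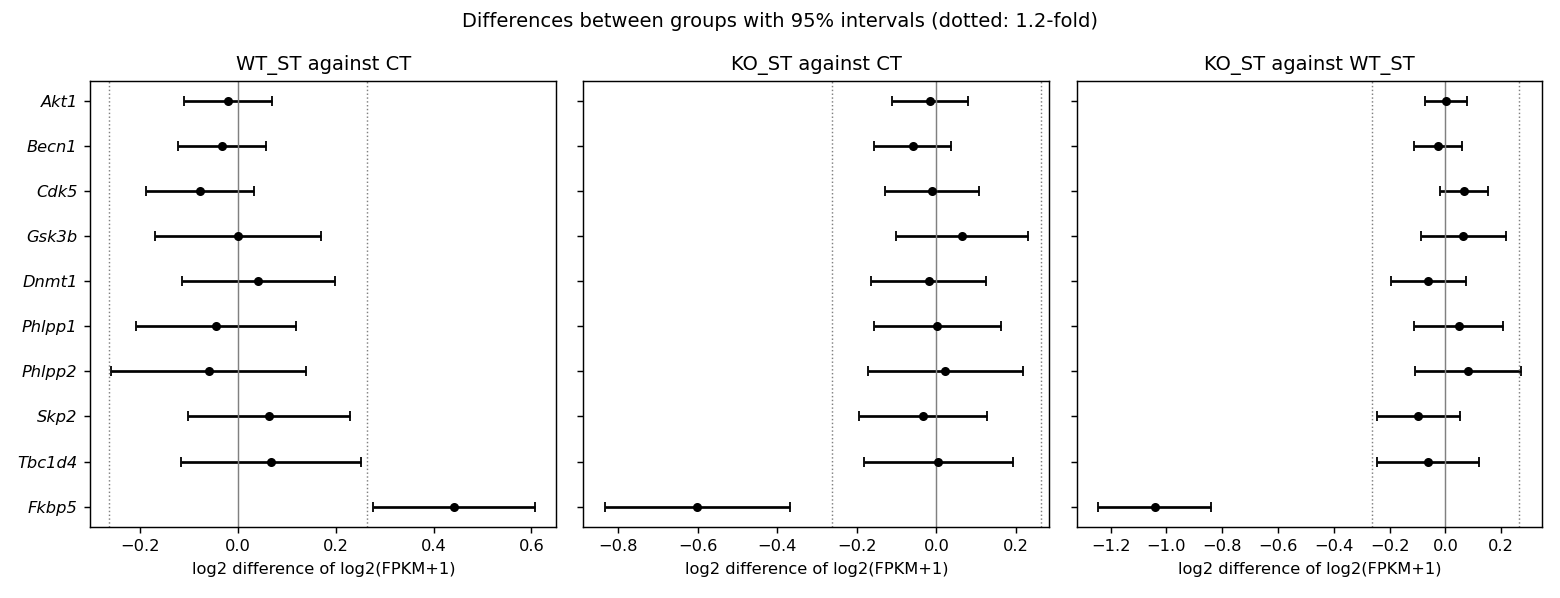
Difference in quantile-normalized log2(FPKM+1) of each of the 9 partner genes and of Fkbp5 in the 3 comparisons, with points for the log2 fold change and bars for the 95% confidence interval from limma (3 mice against 3). Every member's interval includes 0, and 26 of the 27 lie within a 1.2-fold change on this scale (19 of 27 with a pseudocount of 0.1, none of them of Skp2 or Tbc1d4), whereas Fkbp5 lies at 0.44, -0.60 and -1.04.

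The partners covered a wide range of levels in this tissue. Over all 9 mice Akt1 was the highest, at an FPKM of 63.1 ± 1.61 (SD, n = 9), followed by Becn1 at 55.1 ± 1.70, Cdk5 at 50.5 ± 2.05 and Gsk3b at 22.4 ± 1.36. Dnmt1 at 15.4 ± 0.794, Phlpp1 at 14.6 ± 0.839 and Phlpp2 at 10.1 ± 0.767 came next, and Skp2 at 1.297 ± 0.0973 and Tbc1d4 at 1.26 ± 0.138 were the lowest (SD, n = 9). Akt1 stood above 92.1% of the tested genes and Tbc1d4 above 15.4%. Within single mice the order held in all 9 from Akt1 to Becn1, from Cdk5 to Gsk3b, from Gsk3b to Dnmt1, from Phlpp1 to Phlpp2 and from Phlpp2 to Skp2. Becn1 exceeded Cdk5 in 8 of 9 mice, Dnmt1 exceeded Phlpp1 in 7 and Skp2 exceeded Tbc1d4 in 6, and the last 2 pairs differed by less than their spread over mice.

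The partners also differed in how much they varied from mouse to mouse. The coefficient of variation of Akt1 over the 9 mice was 2.55%, lower than that of all but 1.22% of tested genes, and that of Becn1 was 3.09%, with 3.35% of genes below it. The median over tested genes was 8.42%. Phlpp2 at 7.58% and Skp2 at 7.50% were close to this median, and Tbc1d4 at 10.9% was the only member above it. Reads per mouse numbered 7508 to 10230 on Akt1, 8555 to 12502 on Gsk3b, whose coefficient of variation was 6.04%, 316 to 581 on Tbc1d4 and 173 to 247 on Skp2. On the log2 scale of the tests, where the pseudocount compresses low genes, Phlpp2 had the highest SD over mice, at 0.102, and Akt1 the lowest, at 0.0264. The ratio of the highest to the lowest mouse ranged over the members from 1.08 for Akt1 to 1.38 for Tbc1d4.

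**Figure D2:**
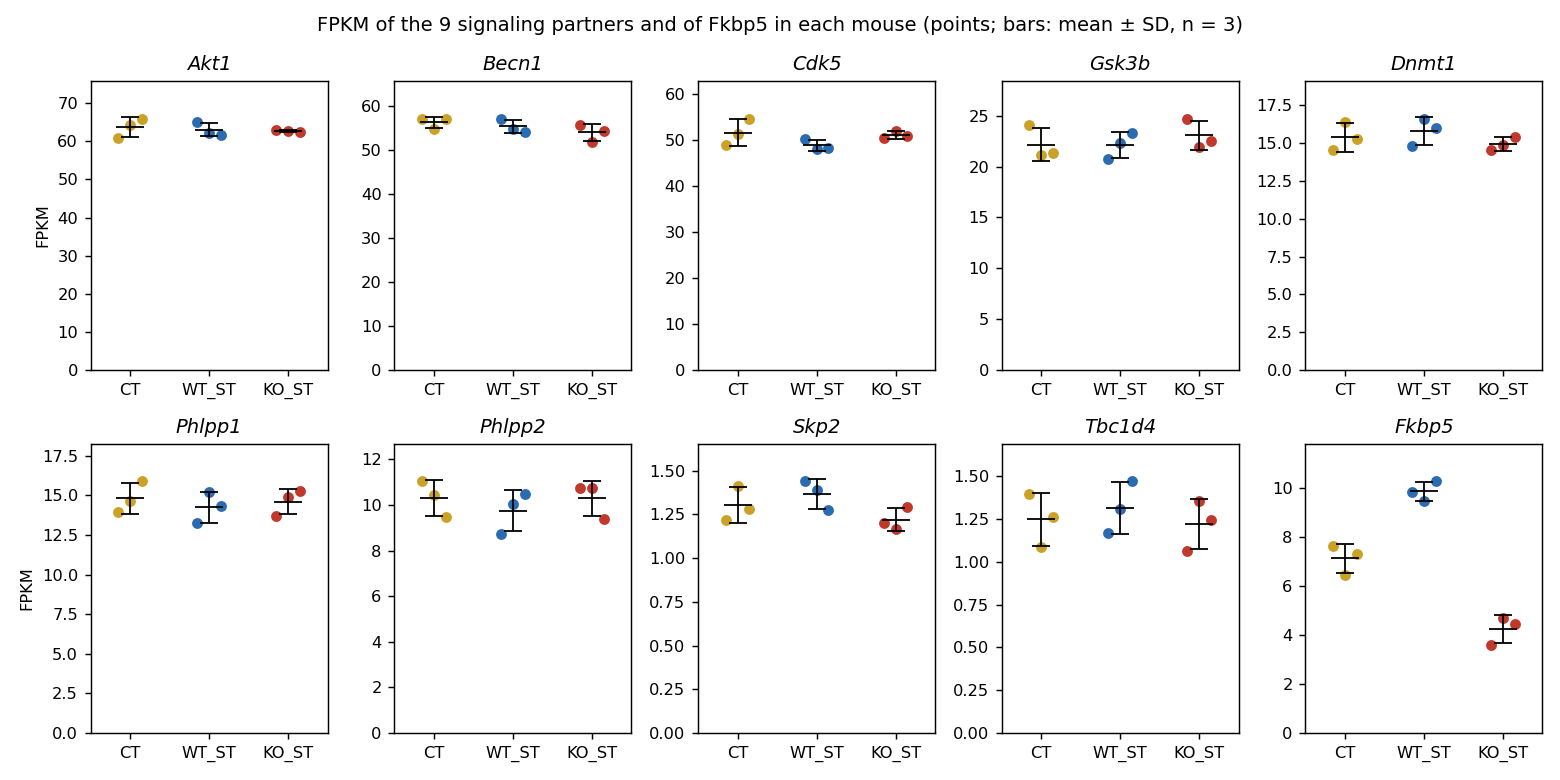
FPKM of the 9 partner genes and Fkbp5 in each mouse, with points for mice and lines for the group mean and SD (n = 3 per group). CT, WT_ST and KO_ST overlap for every partner gene except KO_ST above WT_ST in Cdk5, while for Fkbp5 the 3 groups do not overlap.

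Akt1 encodes a serine/threonine kinase of the insulin and growth factor pathway and lies at chr12:112653821-112674884 (GRCm38.p6). Its FPKM was 60.9, 64.4 and 65.9 in CT, 64.9, 62.3 and 61.8 in WT_ST and 62.9, 62.8 and 62.5 in KO_ST. The KO_ST mice were nearly equal and fell inside the range of both other groups. Its log2 fold change was -0.02 in WT_ST against CT (standard error 0.0382, limma adjusted p = 0.912) and 0.0027 in KO_ST against WT_ST (standard error 0.0324, limma adjusted p = 0.992).

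Phlpp1 and Phlpp2 encode the phosphatases that remove the phosphate from the hydrophobic motif of Akt and that FKBP51 brings to it. Phlpp1 (chr1:106171869-106394245) was at an FPKM of 14.0, 14.6 and 15.9 in CT, 13.2, 15.2 and 14.3 in WT_ST and 13.7, 14.9 and 15.2 in KO_ST. Phlpp2 (chr8:109868517-109944671) was at 11.0, 10.4 and 9.48 in CT, 8.73, 10.05 and 10.5 in WT_ST and 10.7, 10.7 and 9.40 in KO_ST. For both genes the 3 groups overlapped, and WT_ST replicate 1 was the lowest of all mice. In KO_ST against WT_ST the log2 fold change was 0.05 for Phlpp1 (standard error 0.0683, limma adjusted p = 0.956) and 0.08 for Phlpp2 (standard error 0.0808, limma adjusted p = 0.949). The latter was the largest positive difference among all member comparisons on this scale, whereas with a pseudocount of 0.1 it was 0.09 and those of Tbc1d4 and Skp2 in WT_ST against CT, at 0.11 and 0.10, were larger.

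Gsk3b and Tbc1d4 encode proteins that Akt phosphorylates. GSK3 beta is a kinase that Akt inhibits, and AS160, the product of Tbc1d4, holds glucose transporters inside the cell until Akt acts on it. Gsk3b (chr16:38089001-38246084) was at an FPKM of 24.0, 21.1 and 21.3 in CT, 20.7, 22.3 and 23.3 in WT_ST and 24.7, 21.95 and 22.6 in KO_ST. The highest mouse was in KO_ST and the next in CT, and the groups overlapped. The log2 fold change was -0.00045 in WT_ST against CT (standard error 0.0719, limma adjusted p = 0.998) and 0.06 in KO_ST against WT_ST (standard error 0.0647, limma adjusted p = 0.951). Tbc1d4 (chr14:101442360-101609281) was at an FPKM of 1.39, 1.09 and 1.26 in CT, 1.17, 1.31 and 1.47 in WT_ST and 1.06, 1.36 and 1.25 in KO_ST. Each group spanned much the same range. From read counts, where no pseudocount compresses low genes, its log2 fold change was 0.08 in WT_ST against CT and -0.09 in KO_ST against WT_ST (edgeR adjusted p = 0.889 and 0.974).

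Becn1 encodes Beclin 1, which starts the formation of autophagosomes, and Skp2 the substrate receptor of a ubiquitin ligase that marks Beclin 1, among other proteins, for degradation. Becn1 (chr11:101288258-101302286) was at an FPKM of 56.9, 54.8 and 56.9 in CT, 57.0, 54.8 and 54.0 in WT_ST and 55.6, 51.8 and 54.3 in KO_ST. Its mean was 56.2 ± 1.23 in CT, 55.3 ± 1.56 in WT_ST and 53.9 ± 1.93 in KO_ST (SD, n = 3 each), with overlap between all groups. Between KO_ST and CT the log2 fold change was -0.06 (standard error 0.0411, limma adjusted p = 0.670), the smallest adjusted p of any member. Skp2 (chr15:9111982-9155425) was at an FPKM of 1.22, 1.41 and 1.28 in CT, 1.44, 1.39 and 1.27 in WT_ST and 1.201, 1.17 and 1.29 in KO_ST. The highest KO_ST mouse lay just above the lowest WT_ST mouse. In KO_ST against WT_ST its log2 fold change was -0.10 (standard error 0.0629, limma adjusted p = 0.925), the most negative of all member comparisons on this scale and, at -0.16, with a pseudocount of 0.1, and -0.15 from read counts (edgeR adjusted p = 0.972).

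Cdk5 encodes a kinase of postmitotic neurons that acts on the cytoskeleton and synapse, and Dnmt1 the maintenance DNA methyltransferase. Cdk5 (chr5:24407597-24423587) was at an FPKM of 48.9, 51.3 and 54.6 in CT, 50.2, 48.0 and 48.4 in WT_ST and 50.4, 52.0 and 50.8 in KO_ST. It was the only member with groups that did not overlap, KO_ST lying just above WT_ST, which is 1 of 9 members beside 11.1% of all tested genes in that comparison. The log2 fold change there was 0.07 (standard error 0.0369, limma unadjusted p = 0.114 and adjusted p = 0.899), and in WT_ST against CT it was -0.08 (standard error 0.0471, limma adjusted p = 0.706). In both other comparisons 0 of 9 members had groups that did not overlap, against 14% of tested genes in WT_ST against CT and 16.5% in KO_ST against CT. Dnmt1 (chr9:20907206-20959888) was at an FPKM of 14.5, 16.4 and 15.2 in CT, 14.8, 16.6 and 15.998 in WT_ST and 14.5, 14.8 and 15.4 in KO_ST. CT spanned nearly the whole range of KO_ST and most of that of WT_ST, and KO_ST differed from WT_ST by -0.06 on the log2 scale (standard error 0.0573, limma adjusted p = 0.942).

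For 4 families, the share of a partner in the family's summed FPKM was compared, since FPKM is scaled by length. Phlpp1 made up 58.9% ± 3.43, 59.4% ± 1.43 and 58.7% ± 2.95 of Phlpp1 and Phlpp2 in CT, WT_ST and KO_ST (SD, n = 3 each). This balance did not move beyond its spread between mice. Gsk3b was the minor form beside Gsk3a, which had a mean FPKM of 109, at 16.6% ± 1.43, 16.9% ± 1.41 and 17.8% ± 1.11. Tbc1d4 was the minor form beside Tbc1d1, at 23.8% ± 3.35, 25.2% ± 3.13 and 24.9% ± 1.98. Dnmt1 held 57.3% ± 0.939, 59.6% ± 3.45 and 59.7% ± 2.09 of its family with Dnmt3a and Dnmt3b, the de novo methyltransferases. Dnmt3a itself had an FPKM of 10.8, 11.5 and 11.6 in CT, 8.35, 12.1 and 11.7 in WT_ST and 10.5, 9.79 and 9.39 in KO_ST, and was not called in any comparison. Every KO_ST mouse lay below CT, with a log2 fold change of -0.15 (limma unadjusted p = 0.0431, adjusted p = 0.515), under the fold threshold.

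**Figure D3:**
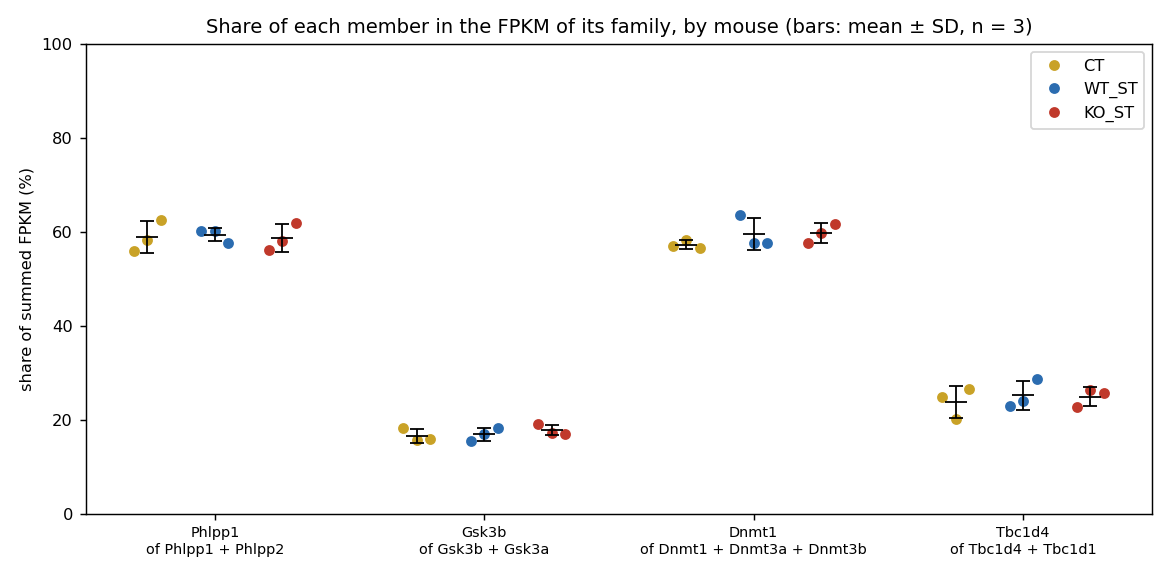
Share of each of 4 partner genes in the summed FPKM of its family, in percent, with points for the 9 mice and lines for the group means (n = 3). Phlpp1 and Dnmt1 hold the larger share of their families and Gsk3b and Tbc1d4 a minor share, with no group apart from the others.

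The genes around the partners were examined in 9 lists, which together held 167 symbols, of which 164 were listed and 162 tested. In WT_ST against CT 1 of them was called (0.617%, against 2.47% of all tested genes), in KO_ST against CT 2 (1.23%, against 3.56%) and in KO_ST against WT_ST 0 (0%, against 2%). With 1 mouse left out these counts became 2 to 4, 1 to 3 and 0 to 2. At an unadjusted p under 0.05 there were 10, 9 and 5 of the 162 genes, against 7.86%, 9.46% and 5.82% of all tested genes, and at an adjusted p under 0.05 there were 0 (limma). The median log2 fold change over the lists was 0.00018, -0.00015 and -0.0065. No gene was called in the lists of Akt activation, Akt substrates, DNA methylation, Cdk5 regulators and targets, the Gsk3 and destruction complex, the Skp2 ligase or glucose transport.

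**Figure D4:**
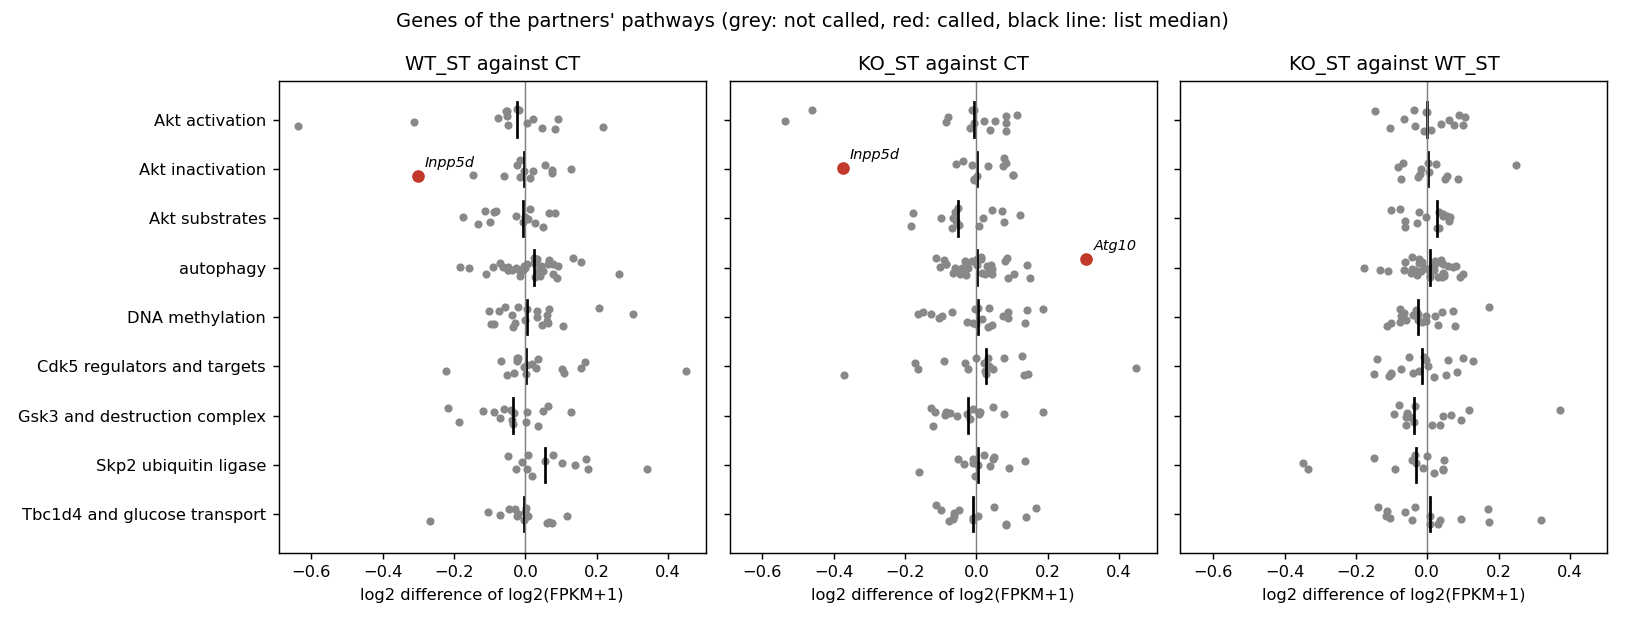
Log2 fold change of the 162 tested pathway genes in the 3 comparisons, by list, with 1 point for each gene and the called genes marked. Most points lie close to 0, and the called genes are Inpp5d, lower in WT_ST and KO_ST than in CT, and Atg10, higher in KO_ST than in CT.

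Inpp5d encodes SHIP1, a lipid phosphatase of blood-derived and microglial cells that removes the signal activating Akt. Its FPKM was 4.03, 3.86 and 4.06 in CT, 3.01, 2.97 and 2.92 in WT_ST and 2.08, 2.74 and 3.56 in KO_ST. Both stressed groups lay below CT in every mouse. The log2 fold change was -0.30 in WT_ST against CT (standard error 0.0615, limma unadjusted p = 0.00165, adjusted p = 0.542) and -0.37 in KO_ST against CT (standard error 0.132, limma unadjusted p = 0.0242, adjusted p = 0.499). From read counts the former had an adjusted p of 0.180 in edgeR and 0.000787 in DESeq2. The call in KO_ST against CT was lost without CT replicate 1, CT replicate 3, KO_ST replicate 1 or KO_ST replicate 2, at log2 fold changes of -0.36, -0.37, -0.24 and -0.38, and also with no filter on reads and with an unmoderated test. Both comparisons use the same CT mice. Microglial markers were also lower than in CT: 5 of 6 were called in each comparison with CT, at a median log2 fold change of -0.38 and -0.75. In KO_ST against WT_ST their median was -0.39, with 1 of 6 called, and Inpp5d differed by -0.07 (standard error 0.130, limma adjusted p = 0.969). Of the 4 tested blood markers 0 were called in any comparison. The part of these markers in the result was not tested. In tissue RNA, fewer cells of a type and less RNA per cell cannot be told apart.

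Atg10, an enzyme of the autophagy conjugation system, had an FPKM of 4.98, 4.06 and 5.06 in CT, 6.25, 4.72 and 6.35 in WT_ST and 6.77, 5.30 and 5.65 in KO_ST. Every KO_ST mouse lay above CT, with a log2 fold change of 0.31 (standard error 0.108, limma unadjusted p = 0.0235, adjusted p = 0.499). The call was lost without CT replicate 2 or KO_ST replicate 1, at 0.23 and 0.22, and with an unmoderated test. It was 1 of 36 genes called in the autophagy list (2.78%, against 3.56% of all tested genes). Atg3, a related conjugation enzyme, had an FPKM of 18.7 to 20.4 in CT, 21.3 to 22.9 in WT_ST and 21.4 to 22.3 in KO_ST. Its log2 fold change was 0.16 in WT_ST and 0.14 in KO_ST against CT (limma adjusted p = 0.634 and 0.501), under the fold threshold.

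In each of the other lists the gene with the smallest p, given here for that reason, was not called. Irs2, an adaptor of the insulin receptor, was at an FPKM of 5.42 to 6.80 in CT and 7.14 to 7.58 in WT_ST, with a log2 fold change of 0.22 (limma adjusted p = 0.635), or 0.28 and past the call without CT replicate 1. Cdkn1a, a cell cycle inhibitor that Akt phosphorylates, was at 11.8 to 12.2 in CT and 9.35 to 10.9 in KO_ST (log2 fold change -0.18, limma adjusted p = 0.501). Ppp1r1a, an inhibitor of protein phosphatase 1, was at 50.03 to 55.3 in CT and 43.3 to 47.8 in KO_ST (log2 fold change -0.17, limma adjusted p = 0.499). The fold change of Irs2, Cdkn1a and Ppp1r1a was below 1.2.

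Slc2a3, the main glucose transporter of neurons, was at an FPKM of 53.6 to 56.5 in WT_ST and 48.4 to 52.3 in KO_ST (log2 fold change -0.11, limma adjusted p = 0.814). Csnk1a1, a kinase of the beta-catenin destruction complex, was at 65.8 to 73.4 in CT and 74.0 to 78.2 in WT_ST (log2 fold change 0.13, limma adjusted p = 0.635). E2f1, a cell cycle transcription factor, was at 8.003 to 9.39 in CT and 9.45 to 10.1 in WT_ST (log2 fold change 0.17, limma adjusted p = 0.635). Uhrf1, which brings Dnmt1 to newly replicated DNA, was low, at 0.187 to 0.443 in CT and 0.398 to 0.543 in WT_ST, and these groups overlapped (log2 fold change 0.21, limma adjusted p = 0.635). Without CT replicate 3 it was 0.27 and past the call, as it was with a pseudocount of 0.1 or 0.5, at 0.62 and 0.33.

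A few genes of these lists differed between single mice by far more than between groups, and the 3 described next were chosen after their values were seen. Reads and FPKM were analysed per gene only, and how the quantification assigned reads to the transcripts of these genes was not tested. Pdpk1 encodes PDK1, the kinase that phosphorylates Akt in its activation loop. Its FPKM was 23.4, 20.9 and 20.6 in CT, 20.1, 5.23 and 22.5 in WT_ST and 22.1, 6.20 and 21.3 in KO_ST. Replicate 2 of each stressed group was thus low, at 1852 and 2079 reads, and the other 7 mice lay close together. The log2 fold change in WT_ST against CT was -0.64 (standard error 0.466, limma adjusted p = 0.748) and -0.02 without WT_ST replicate 2. Between KO_ST and CT it was -0.54 (standard error 0.410, limma adjusted p = 0.700) and 0.0042 without KO_ST replicate 2.

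Pik3r1, a regulatory subunit of the lipid kinase upstream of Akt, had an FPKM of 24.6, 27.1 and 27.4 in CT, 24.1, 16.1 and 23.98 in WT_ST and 11.1, 24.5 and 23.9 in KO_ST. The lowest mice were WT_ST replicate 2 and KO_ST replicate 1, and every stressed mouse lay below CT. Its log2 fold change in WT_ST against CT was -0.31 (standard error 0.145, limma unadjusted p = 0.0662 and adjusted p = 0.648) and -0.13 without WT_ST replicate 2, and it passed the call without WT_ST replicate 1 or WT_ST replicate 3, at -0.40 and -0.41. Between KO_ST and CT it was -0.46 (standard error 0.271, limma adjusted p = 0.616) and -0.11 without KO_ST replicate 1. Mapt, which encodes the microtubule protein tau, a substrate of both CDK5 and GSK3 beta, had an FPKM of 53.7, 129 and 129 in CT, 131, 132 and 132 in WT_ST and 125, 135 and 132 in KO_ST. Only CT replicate 1 was low, and the log2 fold change in WT_ST against CT was 0.45 (standard error 0.307, limma adjusted p = 0.730) with it and 0.05 without it. The highest mouse exceeded the lowest by over 2-fold in 11 of 162 tested pathway genes (6.79%), in 13.2% of all tested genes and in 0 of 9 partners.

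Glucocorticoid receptor motifs were sought in the promoters, since FKBP51 acts on that receptor. RefSeq promoter windows (GRCm38.p6) were found for 7 of the 9 partners, all but Becn1 and Cdk5. In the 250 bases upstream of the start, the 6-letter motif AGAACA or its reverse complement TGTTCT was present in 3 of the partners' 11 windows (27.3%), in the only one of Tbc1d4, in 1 of 2 of Skp2 and in 1 of 3 of Dnmt1. It was present in 16.08% of all 32817 windows of that length. The palindrome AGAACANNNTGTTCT, which contains both, was in none of the partners' windows and in 0.0091% of all. The window of Fkbp5, a gene that glucocorticoids switch on, held 0 copies of either motif. The partners' windows are few, and whether their share differs from that of all windows was not tested. The bases outside the gene are shown for Akt1, the partner with the lowest coefficient of variation (chr12:112674885-112675134, minus strand), and for Tbc1d4, the partner with the highest coefficient of variation and one with the motif (chr14:101609282-101609441, minus strand), 5′ to 3′ with the motif in capitals.
Akt1: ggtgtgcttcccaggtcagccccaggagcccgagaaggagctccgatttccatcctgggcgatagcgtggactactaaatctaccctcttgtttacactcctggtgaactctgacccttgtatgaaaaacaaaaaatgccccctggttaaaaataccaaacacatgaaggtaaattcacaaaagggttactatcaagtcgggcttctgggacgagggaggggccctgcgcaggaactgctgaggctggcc
Tbc1d4: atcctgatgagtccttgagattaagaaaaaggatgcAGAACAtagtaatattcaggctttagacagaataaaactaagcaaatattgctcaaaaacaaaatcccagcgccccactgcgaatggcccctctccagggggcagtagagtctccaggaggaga
The Akt1 stretch held no copy of the motif, and the Tbc1d4 stretch held 1, which began 124 bases before the gene's outermost start. Neither gene was called in any comparison, and a match in a sequence is no evidence of binding.

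The genes whose levels followed each partner most closely over the 9 mice were found by Pearson correlation of quantile-normalized log2(FPKM+1), given as a description over mice of all groups. They were Ercc5 (r = 0.962) and Aph1a (r = 0.953) for Akt1, Dennd4b (r = 0.930) and Notch1 (r = 0.915) for Phlpp1, and Zfp652 (r = 0.987) and Akap6 (r = 0.985) for Phlpp2. Rabgap1l (r = 0.940) followed Gsk3b, and for Tbc1d4 they were Metap1d (r = 0.967) and Med20 (r = 0.916). For Becn1 they were Mpc2 (r = 0.962) and Slc25a14 (r = 0.925), and for Skp2 Sec1 (r = 0.969) and Piga (r = 0.931). Cdk5 was followed by Ubl5 (r = 0.945) and Tmem170 (r = 0.919), and Dnmt1 by Zscan29 (r = 0.935) and Cyyr1 (r = 0.898). Of these genes Sec1, Cyyr1 and Tmem170 had the lowest mean FPKM, at 0.342, 0.874 and 1.03, levels at which the pseudocount compresses differences. No partner was among the closest genes of another. The highest of so many correlations over 9 mice are large in any case, and the gene ranked 50 still had an r of 0.772 to 0.936.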

How the data were processed

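RNA from the mPFC of 9 mice was analysed, 3 per group, with 1 library per mouse, so p-values measure the spread between mice. Libraries were made with a stranded mRNA kit. By the study's methods and the submitters' processing notes, reads were aligned to GRCm38 (mm10) with HISAT2 2.1.0 (with Bowtie2 2.3.4.1) and quantified with StringTie 1.3.4d. For each mouse the authors deposited a table with the read count of every gene, without normalization, and its FPKM, scaled for transcript length and depth.

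After the study's methods, FPKM plus a pseudocount of 1 was put on the log2 scale, followed by quantile normalization over the 9 mice. For genes with a mean of at least 30 reads, groups were compared in limma 3.58.1 (R 4.3.3; moderated variances, trend with expression), using only the mice of the groups compared. P-values were adjusted by Benjamini-Hochberg over all tested genes. Alternatives were the deposited read counts tested in edgeR 4.0.16 and in DESeq2 1.42.0, other pseudocounts and filters, no quantile normalization, an unmoderated test, all 9 mice in a fit, the replicate number as a block, and each mouse left out. Scripts were tested on simulated data. Figures were drawn with matplotlib 3.10.9.

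The members, the lists of pathway and marker genes and the tests were chosen with earlier results of these data known. Of the pathway symbols, Ctmp, Skp1 and Irap were not listed, and the latter 2 are other names of Skp1a and Lnpep, which were. Named genes are Fkbp5, the members, pathway genes called in any comparison, the gene with the smallest unadjusted p in each list, and the 2 genes most correlated with each member. Others were chosen after their values were seen. Some genes picked by these criteria are not reported here. Positions and promoters are from RefSeq (GRCm38.p6). Libraries of the same group were compared with each other, and none was a duplicate of another. Proteins, their phosphorylation and behavior were not analysed here.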

Additional observations from a re-analysis of the deposited data

How the results depend on the processing

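No partner gene was called in any comparison, and none had an F-test with an unadjusted p under 0.05 over the 3 groups, under any alternative run. The 432 log2 fold changes of partners under alternatives, from -0.16 to 0.14, all stayed within the spread between mice of the value reported, and 33 had the other sign. For Cdk5 the lowest unadjusted p was 0.0437 in WT_ST against CT and 0.0431 in KO_ST against WT_ST (limma, edgeR or DESeq2), below the fold threshold.

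Counts of pathway genes were small, and the cause of their changes was not tested. In WT_ST against CT the count of 1 became 2 with a pseudocount of 0.1 or 0.5 and with DESeq2, and 2 to 4 with a mouse left out, the most without CT replicate 3 or WT_ST replicate 1. In KO_ST against CT the count of 2 became 1 with no filter on reads and 0 with the unmoderated test, and 1 to 3 with a mouse left out, and it was 3 only without KO_ST replicate 3. In KO_ST against WT_ST the count of 0 became 1 with a pseudocount of 0.1, with DESeq2 and with all 9 mice in the fit, and 0 to 2 with a mouse left out, the most without WT_ST replicate 1 or KO_ST replicate 3. Pdpk1 in KO_ST against CT, at -0.54, ranged from -0.82 without KO_ST replicate 1 to 0.00423 without KO_ST replicate 2. Uhrf1, low in all mice, passed the call in WT_ST against CT with a pseudocount of 0.1 or 0.5, at 0.62 and 0.33, and without CT replicate 3, at 0.27. It was 0.68 in edgeR and DESeq2, where its unadjusted p was 0.0653 and 0.0572. Irs2 passed the call in WT_ST against CT without CT replicate 1, at 0.28. For Fkbp5 in KO_ST against WT_ST the adjusted p ranged from 8.49e-24 (DESeq2) to 0.251 over the alternatives.

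The replicate numbers shared by the groups showed no pairing of the mice on average: the correlation of their deviations averaged -0.0101 for same-numbered mice (9 pairs) and 0.00494 otherwise (18 pairs). Single pairs ranged from -0.259 to 0.234 and from -0.266 to 0.190, and an average over so few pairs cannot exclude that some mice were paired. With the replicate block, pathway genes called in KO_ST against WT_ST went from 0 to 1, and the adjusted p of Fkbp5 there was 0.0921 (limma).

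Skp2 and Tbc1d4 had the fewest reads of the partners, at 173 to 581 per mouse, and how far depth limits them was not tested.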
